A study of Mus musculus with 9 samples.

Results

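The genes described here carry signals of interleukins 2, 7, 15 and 21 into leukocytes: the receptor chains Il2rb, Il2rg, Il7r, Il21r and Il15ra, the cytokines Il15 and Il7, the kinase Jak3 and the transcription factor Stat5a. They were taken by symbol from the gene names of the deposited count tables, and all 9 were present among 42454 names and among the 18243 names with enough counts to be tested. The tables come from whole tumours that MC38 cells, a mouse colorectal carcinoma line, formed in C57BL/6J mice and that were taken at day 21 after inoculation. In the Vec group (4 tumours) the implanted cells carried a vector and were labelled WT, and in the CD43-KO group (5 tumours) CD43, the leukocyte sialomucin encoded by Spn, was knocked out in the implanted cells, while the hosts of both groups carried the same strain label. The question put by the series is how targeting CD43 bears on immunity to this cancer. Whether the knockout line was a single clone, and what the age and sex of the mice were, was not given in the sources used here. RNA was taken from whole tumour tissue, so host leukocytes, stroma and cancer cells are read together.

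These cytokines are short messengers that keep lymphocytes alive and drive them to divide. Interleukin 2 and interleukin 15 share the beta chain (Il2rb) and the common gamma chain (Il2rg), interleukin 7 binds Il7r with the common gamma chain, and interleukin 21 binds Il21r with the same gamma chain. Jak3 binds the gamma chain inside the cell, and STAT5 proteins then enter the nucleus and switch on genes such as Cish, which in turn damps the signal. Interleukin 15 is mostly held on the surface of the cell that makes it by Il15ra and is handed to neighbouring natural killer and CD8 T cells.

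Total counts per library lay between 44814061 and 72114385. Spn was at 41.0 to 53.8 CPM (counts scaled to library size, with TMM factors between libraries) in Vec and at 6.81 to 33.6 CPM in CD43-KO tumours, lower in all 5 (edgeR quasi-likelihood adjusted p = 0.280), and counts per gene cannot show a deletion inside it. The 9 colon epithelium markers summed to 15.5 to 20.7 CPM in Vec and 12.8 to 20.9 CPM in CD43-KO tumours, mostly from Cdh1 at 6.42 to 14.8 CPM and Lgals4 at 2.51 to 9.17 CPM. Among the defining markers Epcam was at 0.220 to 1.41 CPM, Krt8 at no more than 0.149 CPM and Cdx2 without a count in all 9 libraries. CD43-KO replicate 3 stood apart, with 5 skeletal muscle genes summing to 959.5 CPM against 59.8 to 99.8 CPM in the other 8 tumours, and 4 fat genes to 357.8 CPM against 18.7 to 46.0 CPM. For the 9 genes, values without it are given where they moved by over 1.5 times, and also for Il2rb.

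The mean CPM of CD43-KO tumours was 2.13 times that of Vec tumours for Il2rb, 1.81 times for Il7r, 1.55 times for Il21r, 1.3 times for Il15ra and 1.28 times for Il2rg. The same ratio was 0.798 for Il15, and 1.07, 1.07 and 0.987 for Jak3, Stat5a and Il7. None of the 9 genes passed over all genes tested. With edgeR's quasi-likelihood test, 0% of the 18243 genes were called at a Benjamini-Hochberg adjusted p of 0.05, and 0 of the 9. Before adjustment 7.75% of all genes were higher and 7.63% lower at p under 0.05, and among the 9 Il7r alone was higher and none lower. DESeq2 called 1.48% of its genes higher and 2.18% of them lower, voom in limma, with weights per sample, called 0.899% and 1.81%, and each called 0 of the 9. The log2 fold change was above 0 for 7 of the 9 and for 54% of all genes tested, and its median was 0.36 over the 9 and 0.03 over all. In 5 of the 9 (Il2rb, Il2rg, Il7r, Il21r and Stat5a) at least 3 CD43-KO tumours lay above every Vec tumour, as in 23% of all genes tested, but in 0 of the 9 did the groups separate fully (2.08% of all genes with all CD43-KO tumours above, 3.5% below). In bulk tissue, more cells of a type and more RNA per cell cannot be told apart.

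**Figure D1:**
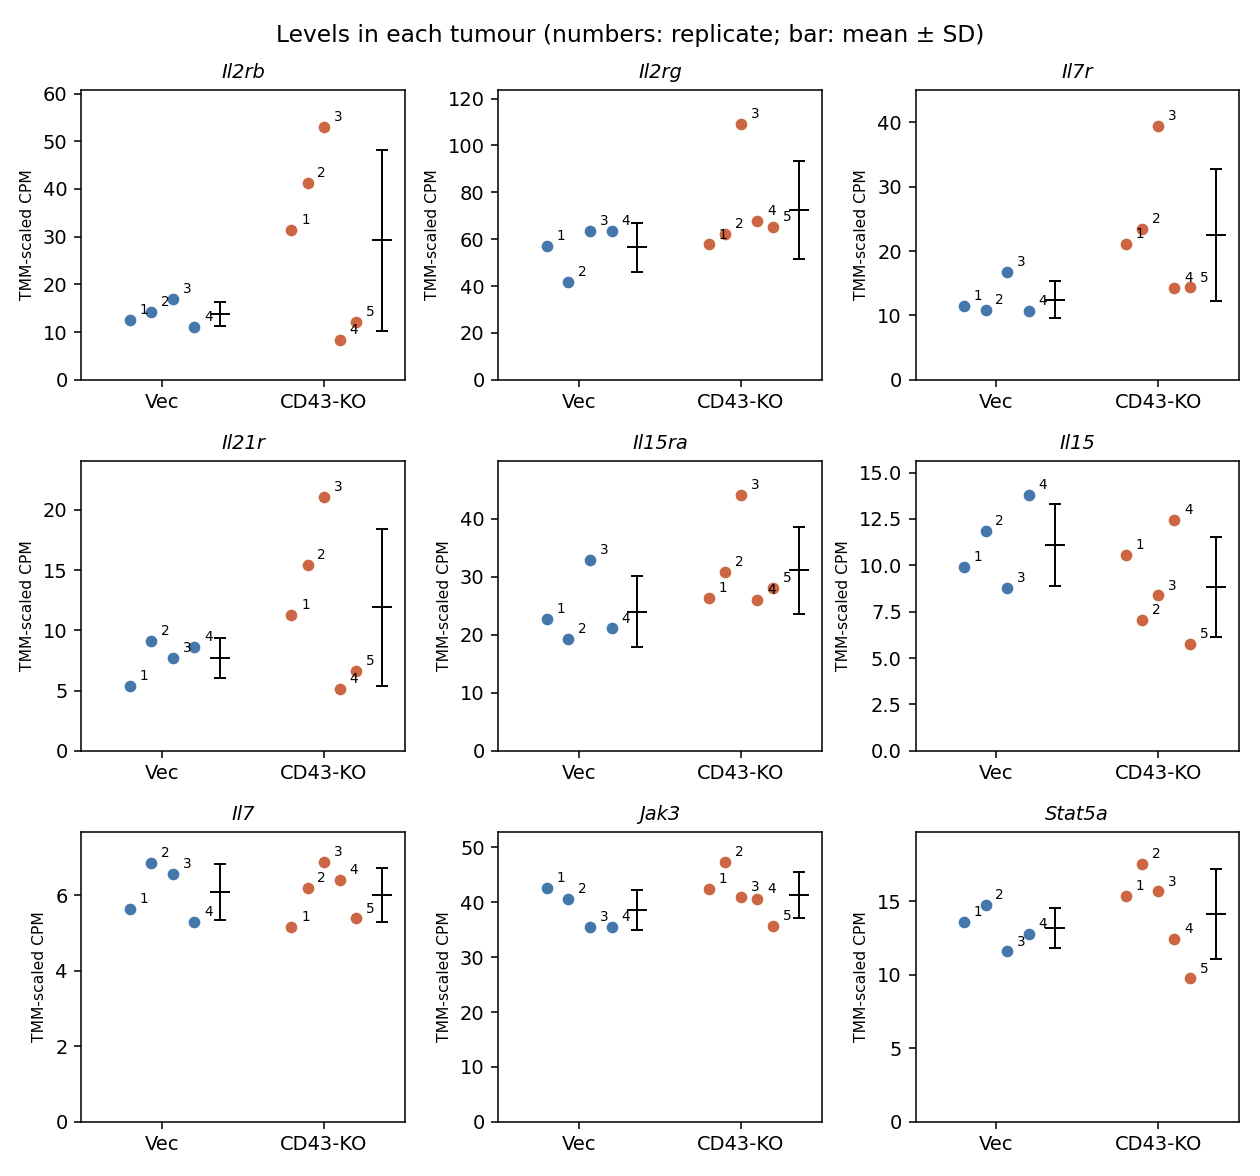
TMM-scaled CPM (y axis, from 0) of the 9 genes in each tumour, with Vec in blue and CD43-KO in orange, replicate numbers beside the points and the mean ± SD as a black bar. For Il2rb, Il7r and Il21r, CD43-KO replicates 1, 2 and 3 sit above every Vec tumour and replicates 4 and 5 do not, while Il7 and Jak3 show nearly the same range in both groups.

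Il2rb (chromosome 15, 78479256 to 78511621, minus strand, in RefSeq's GRCm38.p6), the chain that interleukins 2 and 15 share, differed most in its mean. It was at 12.5, 14.3, 17.0 and 11.1 CPM in Vec replicates 1 to 4, and at 31.5, 41.2, 53.0, 8.27 and 12.1 CPM in CD43-KO replicates 1 to 5. The CD43-KO tumours were split, with replicates 1, 2 and 3 above every Vec tumour, replicate 4 below all of them and replicate 5 among them. The means were 13.7 ± 2.54 CPM (SD, n = 4) and 29.2 ± 19.0 CPM (SD, n = 5), for a log2 fold change of 1.09 ± 0.49 (SE, edgeR adjusted p = 0.327). Without CD43-KO replicate 3 it was 0.76. Between the highest and the lowest tumour lay 6.40-fold in CD43-KO and 1.53-fold in Vec, and the former was the widest such range among the 9 genes.

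Il7r (chromosome 15, 9506159 to 9529941, minus strand), the receptor chain that naive and memory T cells use to survive on interleukin 7, came closest to separating the groups. Its Vec values were 11.5, 10.8, 16.7 and 10.8 CPM, and CD43-KO tumours had 21.1, 23.4, 39.4, 14.3 and 14.3 CPM in the same order of replicates. Only Vec replicate 3 overlapped the CD43-KO tumours, and it lay above their 2 lowest. This gave a log2 fold change of 0.85 ± 0.30 (SE), with an edgeR adjusted p of 0.258, a DESeq2 adjusted p of 0.0817 and a voom adjusted p of 0.0813. A two-sided exact permutation test over the 126 splits of 9 tumours gave p = 0.0476, the smallest of 9 such tests on these genes, unadjusted, where the smallest possible p is 0.00794. Without CD43-KO replicate 3 the log2 fold change was 0.55, and without Vec replicate 3 it was 1.01.

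Il21r (chromosome 7, 125603252 to 125634397, plus strand), the receptor of interleukin 21, a cytokine of helper T cells that acts on B and CD8 T cells, followed the order of Il2rb among the CD43-KO tumours. It was at 5.37, 9.16, 7.70 and 8.61 CPM in Vec, and at 11.3, 15.4, 21.1, 5.16 and 6.62 CPM in CD43-KO tumours. Again replicates 1, 2 and 3 were the high ones and replicate 4 was the lowest of all 9 tumours. Its log2 fold change was 0.63 ± 0.38 (SE, edgeR adjusted p = 0.442), and without CD43-KO replicate 3 it was 0.31.

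Il2rg (chromosome X, 101264385 to 101268255, minus strand), the gamma chain common to all of these receptors, did not share that split. It was at 57.1, 41.7, 63.7 and 63.5 CPM in Vec and at 57.8, 62.2, 109.0, 67.8 and 65.3 CPM in CD43-KO tumours. Apart from CD43-KO replicate 3 and Vec replicate 2, which were the highest and the lowest, all tumours lay within 57.1 to 67.8 CPM. The log2 fold change of 0.36 ± 0.20 (SE, edgeR adjusted p = 0.401) was 0.16 without CD43-KO replicate 3 and 0.24 without Vec replicate 2. The ratio of Il2rb to Il2rg counts was therefore 0.545, 0.663 and 0.486 in CD43-KO replicates 1, 2 and 3, above the Vec range of 0.175 to 0.342, and 0.122 and 0.185 in replicates 4 and 5. The ratio of Il7r to Il2rg was likewise 0.365, 0.377 and 0.362 in the former, against 0.170 to 0.262 in Vec and 0.211 and 0.220 in the latter. That of Il21r to Il2rg overlapped more, at 0.193 to 0.248 in CD43-KO replicates 1 to 3 and 0.0939 to 0.220 in Vec. These ratios are given as a description, with no test. Il2rg shares 728 exonic bases with Gm20489, an overlapping gene on the same strand. That name did not stand among the gene names of the count tables, so it has no level to give. How reads of the shared bases were assigned is not given in the sources used here.

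The start regions of these receptor genes are shown because the chains pair in one receptor while their transcripts varied differently from tumour to tumour. RefSeq promoters of GRCm38.p6, each from 250 bases before to 50 bases after a start site, were matched for 6 of the 9 genes (Il2rg, Il15ra, Il7r, Il21r, Jak3 and Stat5a). Capitals mark matches on either strand to 4 short motifs: TTCNNNGAA, the STAT site, held by 8.3% of 32851 promoters of this length, AGGAAG, an ETS core (35.4%), TGTGGT, a RUNX core (16.8%), and an interferon response element, GAAA and GAAA parted by any 2 bases (3.44%). The lines give Il7r (chr15:9529827-9530126, minus strand), Il21r (chr7:125603179-125603478, plus strand) and Il2rg (chrX:101268206-101268505, minus strand), each 5′ to 3′ along its gene.
Il7r: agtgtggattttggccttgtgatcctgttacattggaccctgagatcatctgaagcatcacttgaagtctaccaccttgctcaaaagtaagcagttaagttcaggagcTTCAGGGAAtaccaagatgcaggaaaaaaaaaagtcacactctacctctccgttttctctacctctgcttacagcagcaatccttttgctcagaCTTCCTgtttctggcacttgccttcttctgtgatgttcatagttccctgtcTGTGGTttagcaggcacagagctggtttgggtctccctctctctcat
Il21r: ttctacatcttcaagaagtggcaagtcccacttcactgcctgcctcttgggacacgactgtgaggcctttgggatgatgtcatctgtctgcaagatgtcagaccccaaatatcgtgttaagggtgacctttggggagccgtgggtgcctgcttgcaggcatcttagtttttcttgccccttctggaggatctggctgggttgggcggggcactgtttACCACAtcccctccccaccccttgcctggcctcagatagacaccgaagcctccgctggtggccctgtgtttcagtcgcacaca
Il2rg: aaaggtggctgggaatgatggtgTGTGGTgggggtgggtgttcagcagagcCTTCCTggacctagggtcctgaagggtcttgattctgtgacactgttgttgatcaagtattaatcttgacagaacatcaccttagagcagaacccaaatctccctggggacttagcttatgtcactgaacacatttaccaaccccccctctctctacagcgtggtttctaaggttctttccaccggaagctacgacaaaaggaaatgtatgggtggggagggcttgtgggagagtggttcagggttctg
The Il7r window held the STAT motif from -142 to -134, counted from the start site of that window as 0, beside 1 ETS and 1 RUNX match. The RefSeq gene spans of Il7r and Il21r begin further upstream, at 9529941 and 125603252. More than 50 bases of these 2 windows therefore lie within the annotated gene. No other promoter matched among the 6 genes held the STAT motif, and none held the interferon motif. Il21r held 1 RUNX match, and Il2rg 1 RUNX and 1 ETS match. Jak3 held no match to any of the 4. No marked match overlapped another, and a match in these letters is a description of the sequence and not evidence that a factor binds there.

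Il15ra (chromosome 2, 11705172 to 11733985), which presents interleukin 15, and Il15 itself (chromosome 8, 82331624 to 82403252) differed in opposite directions on the mean. Il15ra was at 22.8, 19.2, 32.8 and 21.1 CPM in Vec and at 26.4, 30.9, 44.1, 26.0 and 28.0 CPM in CD43-KO tumours. All CD43-KO values exceeded 3 of the 4 Vec values, and Vec replicate 3 lay above all of them but CD43-KO replicate 3. Il15ra had a log2 fold change of 0.37 ± 0.20 (SE, edgeR adjusted p = 0.385), which was 0.21 without CD43-KO replicate 3 and 0.55 without Vec replicate 3. Il15 was at 9.91, 11.8, 8.78 and 13.8 CPM in Vec and at 10.6, 7.07, 8.38, 12.4 and 5.74 CPM in CD43-KO tumours. In CD43-KO replicates 2, 3 and 5 it lay below every Vec tumour, as at least 3 CD43-KO tumours did in 19.9% of all genes tested. Its log2 fold change was -0.33 ± 0.23 (SE, edgeR adjusted p = 0.501), and between -0.48 and -0.20 with single tumours left out, where it was -0.20 without CD43-KO replicate 5 and -0.21 without Vec replicate 4. The ratio of Il15 to Il15ra counts was 0.435, 0.615, 0.268 and 0.654 in Vec and 0.401, 0.229, 0.190, 0.478 and 0.205 in CD43-KO tumours, again below every Vec value in CD43-KO replicates 2, 3 and 5.

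Il7 (chromosome 3, 7572028 to 7613760), a cytokine made mainly by stromal cells, varied little. It was at 5.63, 6.86, 6.56 and 5.30 CPM in Vec and at 5.16, 6.20, 6.89, 6.42 and 5.39 CPM in CD43-KO tumours, ranges that nearly coincide. Its log2 fold change was -0.02 ± 0.15 (SE, edgeR adjusted p = 0.961). It was positive with scaling to library totals only (0.06), a setting that moved the median of all genes from 0.03 to 0.11, and in 4 of the 9 fits that left out a tumour, while without CD43-KO replicate 3 it was -0.08. It shares 105 exonic bases with Gm16685 on the opposite strand, which was at 0.355 to 2.30 CPM.

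Downstream of the receptors, Jak3 and Stat5a were also close between the groups. Jak3 (chromosome 8, 71676383 to 71690577), the kinase bound to the gamma chain, was at 42.7, 40.6, 35.6 and 35.5 CPM in Vec and at 42.4, 47.4, 40.9, 40.6 and 35.7 CPM in CD43-KO tumours. Only CD43-KO replicate 2 lay outside the Vec range. Jak3 had a log2 fold change of 0.10 ± 0.10 (SE, edgeR adjusted p = 0.653). Stat5a (chromosome 11, 100859351 to 100885169), one of the STAT5 factors, was at 13.6, 14.8, 11.6 and 12.8 CPM in Vec and at 15.4, 17.5, 15.7, 12.5 and 9.75 CPM in CD43-KO tumours. Replicates 1, 2 and 3 lay above every Vec tumour, as for Il2rb, but by a smaller margin, and replicate 5 lay below all of them. Stat5a had a log2 fold change of 0.10 ± 0.17 (SE, edgeR adjusted p = 0.783). The log2 values for Jak3 and Stat5a were 0.05 and 0.02 without CD43-KO replicate 2, without CD43-KO replicate 3 they were 0.10 and 0.06, and without Vec replicate 3 they were 0.05 and 0.03. Jak3 gave 0.06 without Vec replicate 4, and Stat5a gave 0.21 without CD43-KO replicate 5 and 0.16 without Vec replicate 2. Jak3 shares 404 exonic bases with Insl3 on the same strand, which was at 0.148 to 0.986 CPM, and Stat5a shares 72 with Stat3 on the opposite strand, which was at 42.3 to 101.9 CPM, more than Stat5a itself. Whether counting used strand was not stated in the sources used here.

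Compared per length, the gamma chain was the most abundant of these transcripts. Per kilobase of exons (GENCODE M21), Il2rg was at 31.6 ± 5.79 CPM per kb in Vec tumours (SD, n = 4), followed by Il15ra at 10.2 ± 2.58, Jak3 at 8.64 ± 0.811 and Il15 at 4.90 ± 0.975 CPM per kb. Il2rb, Il7r and Il21r followed at 3.20 ± 0.592, 2.67 ± 0.612 and 2.32 ± 0.503 CPM per kb, and Stat5a and Il7 were lowest at 1.85 ± 0.188 and 1.08 ± 0.131 CPM per kb. Within 1 SD of each other lay Il15ra and Jak3, and the neighbours Il2rb and Il7r, Il7r and Il21r, and Il21r and Stat5a. In CD43-KO tumours (n = 5) Il2rg was at 40.6 ± 11.7, Il2rb at 6.81 ± 4.43, Il7r at 4.83 ± 2.21 and Il15 at 3.91 ± 1.19 CPM per kb, so Il15 ranked below Il2rb and Il7r there, by less than the spread between tumours. The authors' annotation is not given in the sources used here, so lengths are those of another gene model.

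**Figure D2:**
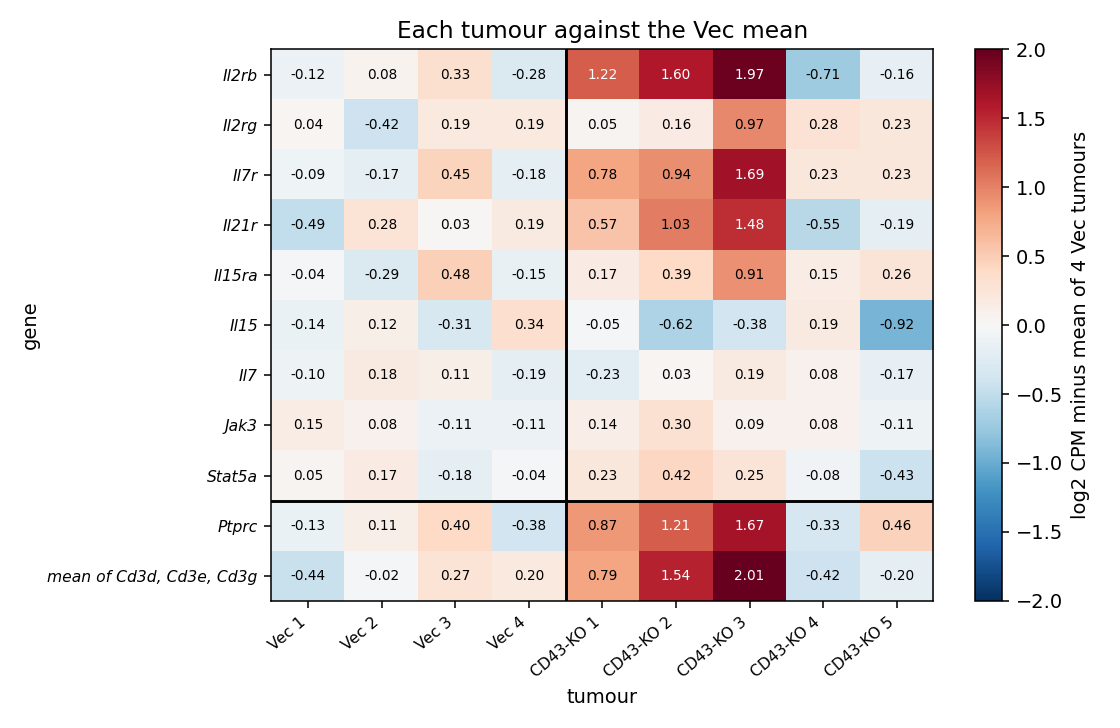
Difference of each tumour from the mean of the 4 Vec tumours, in log2 CPM (colour and printed value), for the 9 genes, for the leukocyte gene Ptprc and for the mean of Cd3d, Cd3e and Cd3g. Il2rb, Il7r and Il21r show their highest values in CD43-KO replicates 1 to 3, as Ptprc and the Cd3 genes do, while Jak3 and Il7 lie between -0.23 and 0.30 in all 9 tumours.

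Summed markers of T cells, natural killer cells and macrophages, and Ptprc, were highest in CD43-KO replicates 1, 2 and 3, but so were the sums for fibroblasts and vessels. The 6 T cell markers (Cd3d, Cd3e, Cd3g, Cd247, Cd2 and Cd5) summed to 14.0, 19.6, 23.6 and 21.3 CPM in Vec and to 34.3, 57.9, 85.4, 14.1 and 19.4 CPM in CD43-KO tumours, all 6 had a log2 fold change above 0, and none was at 0 in any library. The CD8 markers summed to 11.4 to 16.3 CPM in Vec and 9.26 to 47.3 CPM in CD43-KO tumours, with CD43-KO replicate 4 lowest. The 4 natural killer markers summed to 9.20 to 11.7 CPM in Vec and 11.0 to 29.4 CPM in CD43-KO tumours, with 4 of 4 above 0. The 4 macrophage and monocyte markers summed to 191.0 to 233.5 CPM in Vec and 169.7 to 488.1 CPM in CD43-KO tumours, with 4 of 4 above 0. The 4 B cell markers summed to 0.237 to 0.665 CPM and 0.727 to 3.57 CPM. Ptprc, the pan-leukocyte gene for CD45, was at 42.7, 50.6, 61.7 and 35.9 CPM in Vec and at 85.2, 108.4, 148.3, 37.1 and 64.4 CPM in CD43-KO tumours. The 4 fibroblast markers summed to 780.3 to 825.5 CPM in Vec and to 1171, 1732, 1011, 664.3 and 557.8 CPM in CD43-KO tumours, though only 2 of the 4 lay above 0 in log2 fold change. Col1a1 was at 890.1, 1408 and 437.3 CPM in CD43-KO replicates 1 to 3, against 345.0 to 521.2 CPM in Vec. Dcn lay above the Vec range only in replicate 3, where Pdgfrb was lowest of all 9 tumours at 28.4 CPM. Pdgfra lay within its Vec range in all 3. The 4 endothelial and lymphatic markers summed to 49.5 to 59.2 CPM in Vec and to 70.0, 82.8, 69.2, 40.5 and 52.4 CPM in CD43-KO tumours, with 3 of 4 above 0. Pecam1 was above every Vec tumour in replicates 1 to 3, but Cdh5 was within its Vec range in replicate 3 (20.3 CPM), and Lyve1 in replicates 1 and 2. Dendritic cell markers summed to 26.1 CPM in CD43-KO replicate 1, below Vec replicate 3 (28.8 CPM) and CD43-KO replicate 5 (30.1 CPM). The mast cell and basophil sum of CD43-KO replicate 1 (3.62 CPM) lay below that of Vec replicate 4 (5.67 CPM). The sum for innate lymphoid cells of types 2 and 3 was highest in Vec replicate 3 (116.2 CPM). Neutrophil markers, mostly S100a8 and S100a9, did not follow the order of the T cell sums either. They summed to 6.58 to 77.9 CPM in Vec and 86.9, 18.7, 39.3, 46.7 and 13.1 CPM in CD43-KO tumours. Of 3 tested genes 1, Csf3r, lay above 0, at 3.67 to 4.78 CPM in Vec and at 9.23, 11.9, 21.6, 8.37 and 5.88 CPM in CD43-KO tumours. Its groups did not overlap, as in 2.08% of all genes tested with CD43-KO above. Adjusted p for Csf3r was 0.167 with edgeR, 0.00207 with DESeq2 and 0.0409 with voom. CD43-KO replicates 1, 2 and 3 were thus the 3 tumours with the most T cell transcripts, natural killer transcripts and Ptprc, and also those with the most Il2rb, Il7r and Il21r. The part of these markers, and of the muscle and fat transcripts of replicate 3, in the differences between groups was not tested.

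Set against these gauges tumour by tumour, the mean differences in Il2rb and Il7r were near 0 and that in Il21r was below 0. On the log2 CPM scale, Il2rb minus the mean of Cd3d, Cd3e and Cd3g was 1.6 ± 0.34 (SD, n = 4) in Vec and 1.64 ± 0.26 (SD, n = 5) in CD43-KO tumours, a difference of 0.04 where the plain difference in log2 CPM was 0.78. Il7r gave 1.46 ± 0.33 and 1.48 ± 0.52, and Il21r 0.76 ± 0.22 and 0.49 ± 0.24. Against Ptprc, Il2rb split the CD43-KO tumours further: at -1.44, -1.39 and -1.48 replicates 1 to 3 lay above the Vec range of -1.86 to -1.69, and at -2.16 and -2.41 replicates 4 and 5 lay below it. Il7r minus Ptprc was -1.93 ± 0.20 in Vec and -1.93 ± 0.34 in CD43-KO tumours. The other genes were lower against the gauges, with Jak3 minus the Cd3 mean at 3.11 ± 0.45 and 2.46 ± 0.98, Stat5a at 1.56 ± 0.42 and 0.89 ± 0.81, and Il15 at 1.29 ± 0.39 and 0.19 ± 1.21. All of these are descriptions with no test.

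In the fit across all genes, the Cd3 mean as a covariate gave log2 fold changes of 0.02 for Il2rb, 0.36 for Il7r, -0.13 for Il21r, 0.20 for Il2rg and 0.17 for Il15ra, with edgeR adjusted p from 0.309 to 0.968. Ptprc as the covariate gave -0.26, 0.23, -0.30, 0.18 and 0.07, with edgeR adjusted p from 0.653 to 0.893. The sign of Il21r thus turned with both covariates, and that of Il2rb with Ptprc. The gauges were measured in the same libraries and partly follow the groups, so the number of cells and the RNA per cell cannot be told apart in these fits.

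**Figure D3:**
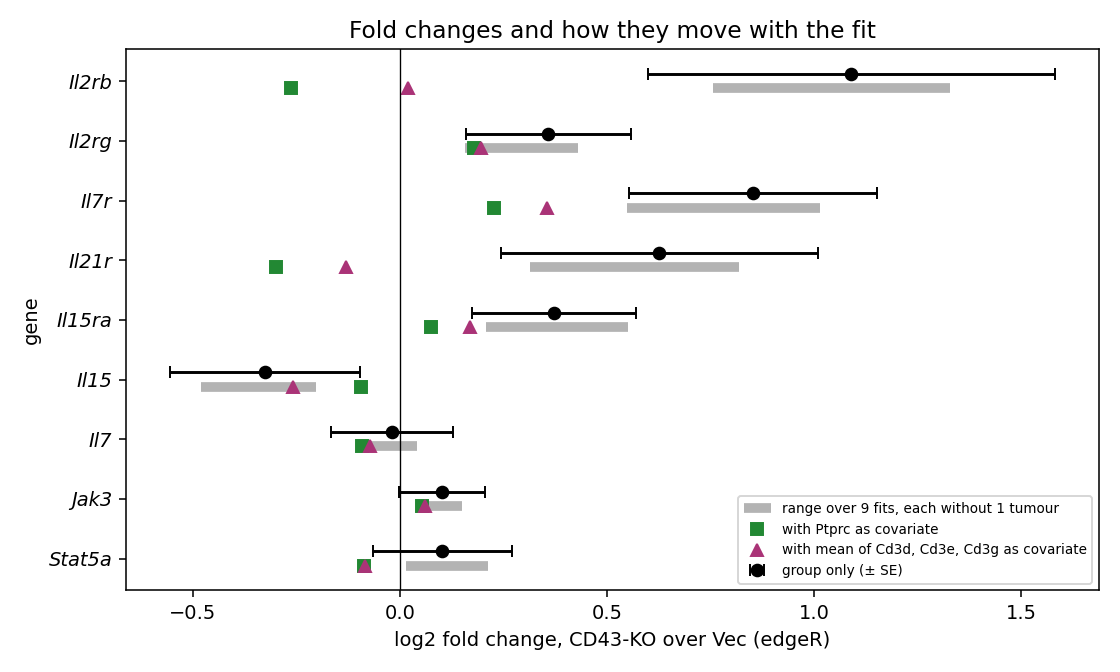
Log2 fold change (x axis, CD43-KO over Vec) of the 9 genes in the edgeR fit on the group (black, ± SE), its range over 9 fits that each left out 1 tumour (grey bar), and its value with Ptprc (green square) or the mean of Cd3d, Cd3e and Cd3g (purple triangle) as a covariate. Il2rb moves from 1.09 to 0.02 and -0.26 with the covariates, while Jak3 stays between 0.05 and 0.15 in all fits shown.

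**Figure D4:**
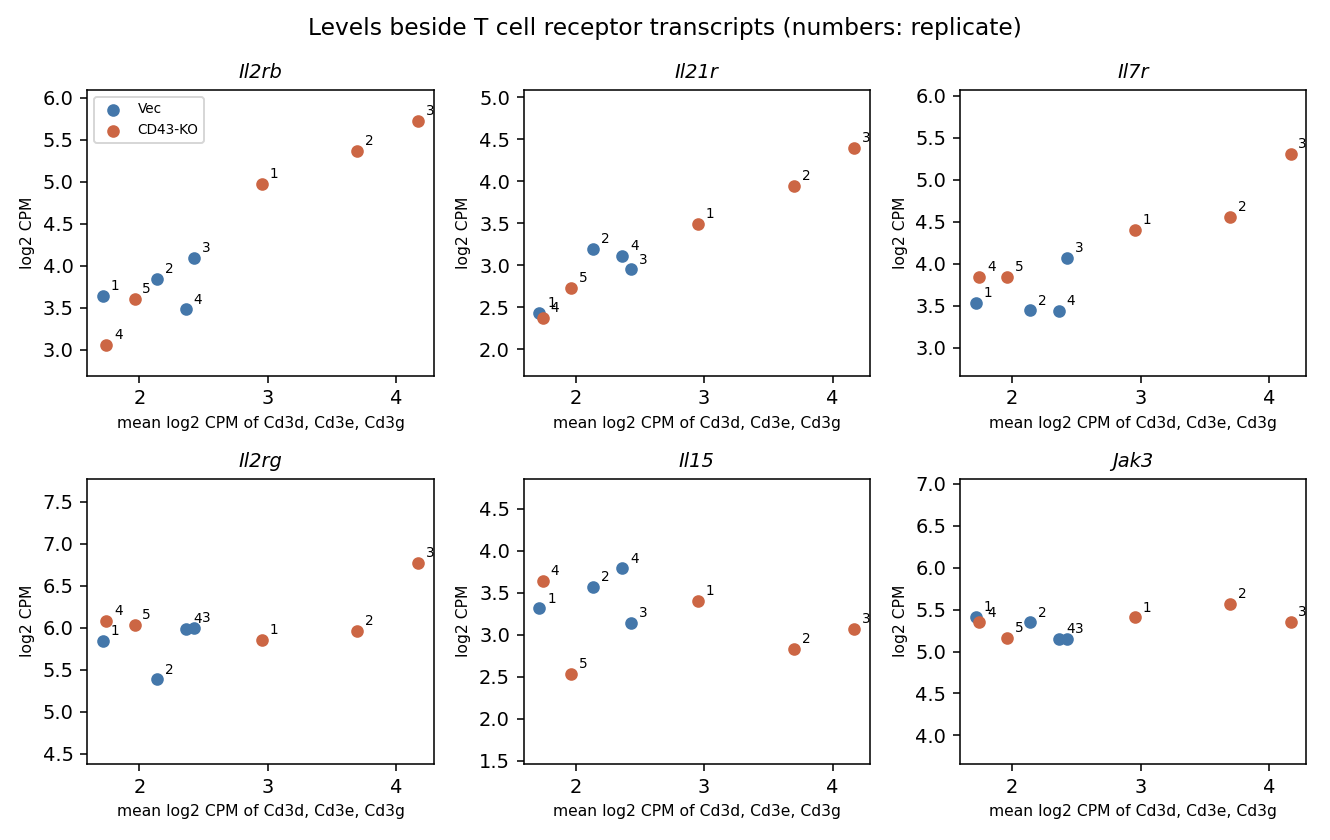
Log2 CPM of 6 genes (y axis, each spanning the same height) against the mean log2 CPM of Cd3d, Cd3e and Cd3g (x axis) in the 9 tumours, Vec in blue and CD43-KO in orange. Il2rb, Il21r and Il7r are highest in CD43-KO replicates 1 to 3, at the right of the axis, and Jak3 spans less than 0.5 over all 9 tumours.

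Over the 9 tumours, the genes most like each member were sought among 12451 tested, named genes with a mean of at least 1 CPM, by Pearson's r of log2 CPM. These r are descriptions, as the nearest of many genes was chosen and all points share their libraries with the gene compared. Il2rb was nearest to Ablim1 (r = 0.99, Spearman's rho = 0.98, and r = 0.99 without the 2 tumours farthest from its median, CD43-KO replicates 2 and 3), to Sh2d2a, which encodes a T cell adaptor (r = 0.99, rho = 0.95), and to Stat4, a mediator of interleukin 12 signals (r = 0.99, rho = 0.92). Il7r was nearest to Cd274, which encodes PD-L1 (r = 0.99, rho = 0.98, and 0.95 without CD43-KO replicates 2 and 3), to Matk (r = 0.99, rho = 0.98) and to Rnf19b (r = 0.99, rho = 0.90). Il21r was nearest to Epsti1 (r = 0.99, rho = 1.00, and 0.98 without those 2 tumours), Inpp4b and Arhgap9 (r = 0.99 and rho = 0.95 for both).

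The other 6 genes had other neighbours. Il15ra was nearest to Abracl, Ssbp1 and Ogfrl1, with r from 0.96 to 0.97, and Stat5a to Wipf1, Ap1b1 and Mapre2, with r from 0.93 to 0.96. Il2rg was nearest to Mettl6 (r = 0.96), Ccm2 (r = 0.96) and Cox7b (r = 0.94), but without CD43-KO replicate 3 and Vec replicate 2 the r were 0.27, 0.84 and 0.39, so the likeness to Mettl6 and Cox7b rested on those 2 tumours. Jak3 was nearest to Sidt2, Ubxn11 and Igsf10 (r from 0.91 to 0.96), Il15 to Gtf2i, Mkln1 and Tmem53 (r from 0.92 to 0.94), and Il7 to Npnt, Osbpl10 and Tmem254a (r from 0.82 to 0.94). Among the 9 genes themselves, Il2rb and Il21r were the most alike of the 36 pairs (r = 0.93, rho = 0.85, and r = 0.89 without CD43-KO replicate 3), followed by Il15ra with Il7r (r = 0.91, rho = 0.90, and 0.79 without it). Jak3 and Stat5a, which lie on different chromosomes, had r = 0.83 and rho = 0.77, and 0.85 without it. Il15 and Il15ra had r = -0.57 and rho = -0.73, and r = -0.66 without CD43-KO replicate 3, given as a description with no test.

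The wider pathway was read from 4 further lists of genes, none of which held a gene that edgeR called over all genes tested. DESeq2 called 1, Socs2, as higher, and over all its genes it called 1.48% higher and 2.18% lower. Over all genes tested, 54% lay above 0 in log2 fold change, 7.75% were higher at an unadjusted edgeR p under 0.05, and the median was 0.03. Among the other cytokines and receptor chains, 4 of 9 were tested, all 4 lay above 0 in log2 fold change (median 0.40), and 2 had an unadjusted edgeR p under 0.05. This median of few genes was 0.20 without CD43-KO replicate 3 (where Tslp was at -0.38), 0.23 without Vec replicate 4, 0.63 without Vec replicate 3 and 0.73 with no filter on low counts. Il4ra, the receptor chain of interleukins 4 and 13, was at 73.4, 72.7, 77.9 and 71.7 CPM in Vec and at 107.6, 120.8, 141.7, 81.8 and 79.4 CPM in CD43-KO tumours. All 5 thus lay above every Vec tumour, as in 2.08% of all genes tested (log2 fold change 0.52 ± 0.17 SE, edgeR adjusted p = 0.232). Il2ra, the high-affinity chain of the interleukin 2 receptor and a mark of regulatory and activated T cells, was at 2.92, 2.98, 3.79 and 3.01 CPM in Vec and at 6.51, 7.63, 10.3, 2.38 and 3.90 CPM in CD43-KO tumours (0.95 ± 0.37 SE, edgeR adjusted p = 0.279). Its order resembled that of Il2rb, with replicate 4 again below all Vec tumours. Crlf2, a chain of the TSLP receptor, had means of 33.7 ± 1.94 CPM and 38.7 ± 11.9 CPM in Vec and in CD43-KO tumours. Without CD43-KO replicate 3 the edgeR values on the log2 scale were 0.39 for Il4ra, 0.68 for Il2ra and 0.02 for Crlf2.

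Transcripts of the lymphocyte cytokines that use these receptors were at or near the limit of the libraries. Il2 had between 0 and 15 counts per library, with 8 in all Vec and 30 in all CD43-KO libraries together. Il21 had 10 and 40 counts in all, Il4 had 2 and 22, and both were without a count in 5 of the 9 libraries. Il9 had 0 counts in all 9, which allows up to 3 counts, or 0.0422 to 0.0696 CPM, in a library. The filter on low counts left these genes out. Without it, edgeR gave log2 fold changes of 1.54 ± 1.09 for Il2, 3.14 ± 1.69 for Il4 and 2.05 ± 1.67 for Il21 (SE, adjusted p = 0.491, 0.455 and 0.559), values that rest on few counts. Copies of the Il2 and Il21 names stood in the tables, and the counts given here are those of the plain names alone.

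Of 6 further kinases and STAT factors, 4 had a log2 fold change above 0 (median 0.16), beside 54% of all genes tested. An unadjusted edgeR p under 0.05 was found for 2, both higher, beside 7.75% of all genes tested. The median was 0.04 without Vec replicate 3, 0.10 without CD43-KO replicate 1, 0.11 without CD43-KO replicate 2 and 0.25 with library totals only. The pair were Tyk2, with means of 25.9 ± 4.05 and 33.3 ± 4.57 CPM in Vec and CD43-KO tumours (0.36 ± 0.14 SE, edgeR adjusted p = 0.274), and Jak2, at 40.2 ± 7.16 and 51.4 ± 6.56 CPM (0.36 ± 0.14 SE, edgeR adjusted p = 0.285). The most abundant of the 6 were Jak1, the partner of Jak3 on these receptors, and Stat6, the main factor of interleukin 4 signals. They had Vec means of 176.4 ± 20.0 and 130.3 ± 13.9 CPM and CD43-KO means of 170.9 ± 35.6 and 123.1 ± 10.2 CPM. Without CD43-KO replicate 3 the log2 fold change of Jak1 turned from -0.05 to 0.07.

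Feedback inhibitors of cytokine receptors lay above 0 in 7 of 7 cases (median 0.37), with 3 at an unadjusted edgeR p under 0.05. The shares over all genes tested were 54% above 0 and 7.75% higher at that p. Socs2, a STAT5-induced inhibitor, was at 9.06, 8.93, 8.09 and 7.26 CPM in Vec and at 11.0, 16.5, 10.4, 12.9 and 16.2 CPM in CD43-KO tumours. All 5 CD43-KO values lay above every Vec value, as in 2.08% of all genes tested. The order of the tumours was not that of Il2rb, since replicates 2 and 5 were the highest. Its log2 fold change was 0.69 ± 0.17 (SE), with an adjusted p of 0.187 in edgeR, 0.0118 in DESeq2 and 0.0572 in voom. Socs2 was the single call by DESeq2 within the pathway lists, beside 1.48% of its genes called higher over all. Socs3, which inhibits interleukin 6 family signals, was at 91.8 ± 2.46 and 110.9 ± 13.8 CPM (0.27 ± 0.10 SE, edgeR adjusted p = 0.273). Ptpn2, a phosphatase that removes the marks JAK kinases set, was at 47.8 ± 4.62 and 49.8 ± 5.38 CPM, and its log2 fold change turned from 0.06 to -0.01 without CD43-KO replicate 3.

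STAT5 target and survival genes lay above 0 in all 11 tested of 12 (median 0.23), 3 of them at an unadjusted edgeR p under 0.05. Again 54% of all genes tested lay above 0 and 7.75% were higher at that p. Osm, the cytokine oncostatin M, had means of 3.14 ± 0.618 and 5.74 ± 2.02 CPM in Vec and CD43-KO tumours (0.87 ± 0.29 SE, edgeR adjusted p = 0.245), and the kinase gene Pim2 at 5.47 ± 0.660 and 7.91 ± 2.52 CPM (0.53 ± 0.22 SE, edgeR adjusted p = 0.301). Pim2 was at 0.33 without CD43-KO replicate 3. Of the most abundant members, Mcl1, which blocks cell death, was at 400.0 ± 26.0 and 407.1 ± 41.1 CPM (log2 fold change 0.03, and -0.04 without CD43-KO replicate 3), and Myc at 136.5 ± 17.6 and 162.6 ± 29.1 CPM (0.25 ± 0.15 SE).

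**Figure D5:**
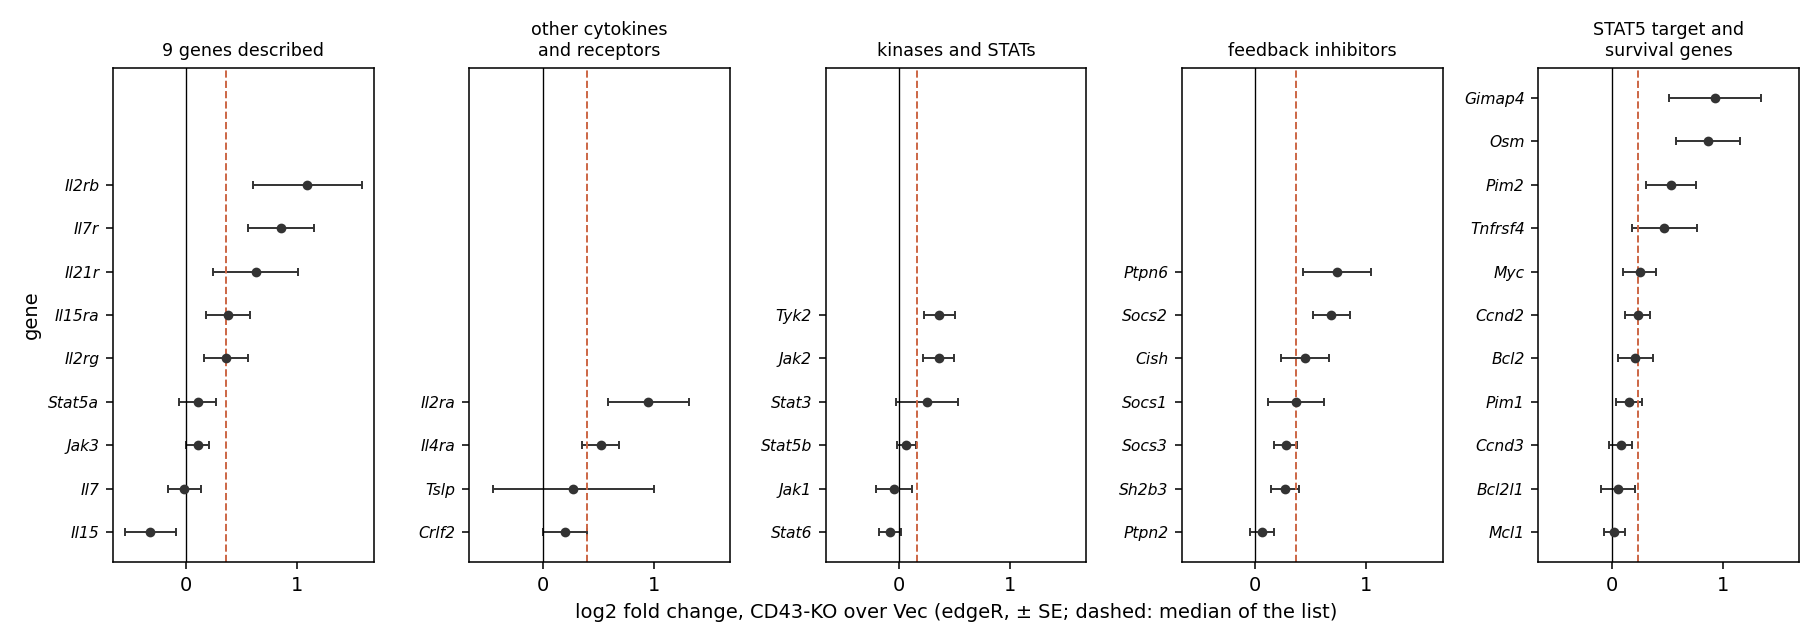
Log2 fold change (x axis, CD43-KO over Vec, points with SE) of each tested gene of the 9 described and of the 4 further lists, with the median of each list as a dashed line. The other cytokines and receptors and the feedback inhibitors lie to the right of 0, with list medians of 0.40 and 0.37, and the kinases and STATs lie on both sides of 0, with a median of 0.16. With single tumours left out, the medians of the first and last ranged from 0.20 to 0.63 and from 0.04 to 0.24.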

How the data were processed

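The authors deposited whole-number counts per gene name for each of 9 tumours, not scaled to depth, per the file headers and values. HISAT2 2.1.0, StringTie 1.3.5, DESeq2 and GRCm38 stand in the submitters' processing notes, without roles. The counting step, annotation and strand setting were not given in the sources used here. Groups came from the labels, and replicates were numbered in order of deposition, so numbers pair no tumours. Nothing says that the tumours of a group came from separate mice, so p-values measure only the spread between these samples, which may be technical. No 2 libraries agreed within sampling noise (chi-square over degrees of freedom at least 27.0 in 36 pairs). R 4.3.3, edgeR 4.0.16, limma 3.58.1 and DESeq2 1.42.0 were used. Genes were kept by filterByExpr (minimum count 10, total 15), scaled by TMM and tested with edgeR's robust quasi-likelihood F test on the group, with Benjamini-Hochberg adjustment over 18243 genes. SEs are the log2 fold change over the square root of F. Log2 CPM used a prior count of 2. The procedure was also run on simulated counts with a common dispersion for all genes. These do not mimic the spread between tumours, so they cannot tell why the tests called different numbers of genes here. Lists are described by counts and medians, with no set test. A single gene was left out of these lists and is not reported here. In each, the 2 most abundant genes and the 2 of smallest p are named, and for each of the 9 genes the 3 of highest r. The genes and lists were chosen with earlier results of these data known. A copy suffix was carried by 2346 gene names, none of them of the 9 genes. Alternatives were DESeq2, limma voom with sample quality weights, other scalings, other filters, no robust estimation, a leukocyte or T cell covariate and leaving out each tumour. For these covariates the mean log2 CPM of Cd3d, Cd3e and Cd3g, or that of Ptprc, entered the fit.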

Additional observations from a re-analysis of the deposited data

Results flagged for a closer look

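Among 18 groups of values checked (9 genes in each group of tumours), 3 held a tumour flagged by Dixon's outlier test. This divides the gap between the highest or lowest tumour and its neighbour by the range of its group. The cut-off depends on the number of tumours, and the share was 0.80, 0.73 and 0.88 in the 3 cases below. Chance passes it in about 1 in 20 groups of independent, normal values. The 9 genes were read in the same tumours, so the count of 3 is not set against that rate. Il2rg in CD43-KO replicate 3 reached 109.0 CPM, where the other 4 tumours of its group had 57.8 to 67.8 CPM. Il15ra in the same tumour reached 44.1 CPM, where the others had 26.0 to 30.9 CPM. Il7r in Vec replicate 3 was at 16.7 CPM, where the other Vec tumours had 10.8 to 11.5 CPM. CD43-KO replicate 3 also had the most muscle and fat transcripts, the highest sum of T cell markers and the lowest depth, and the part of these in its values was not tested.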

How the results depend on the processing

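None of the 9 genes was called in any of the 19 alternative fits. Over all genes, DESeq2 called 247 higher and 365 lower and voom 164 and 331, against 0 and 0 with edgeR. Without a filter on low counts edgeR called 0 higher and 1 lower, and with 1 tumour left out 0 to 8 higher and 0 to 21 lower, the most without Vec replicate 3. At an unadjusted p under 0.05 edgeR gave 1414 higher and 1392 lower genes. Il2rg, Il15ra, Il7r, Il15 and Jak3 kept their sign in all 19. With Ptprc as a covariate Il2rb (-0.26), Il21r (-0.30) and Stat5a (-0.087) changed sign, as did Il21r (-0.13) and Stat5a (-0.085) with the Cd3 mean. Il7 was positive with library totals only (0.056) and without Vec replicate 2 (0.042), Vec replicate 3 (0.0075), CD43-KO replicate 1 (0.031) or CD43-KO replicate 5 (0.018), and with single tumours left out it ranged from -0.088 to 0.042. The cause of these shifts was not tested. No paired analysis was possible because the labels give no shared replicate numbers. Depth limits Il2, Il4, Il9 and Il21, which the filter left out. The medians of the feedback inhibitors and of the STAT5 target genes moved by less than 1.5 times in all alternatives but the covariate fits, for which medians were not computed, and those of the other lists by more in some, as given above.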
